A study of Mus musculus with 8 samples.

Results

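Described here are 40 genes out of 52636 gene identifiers in the count table. They encode part of the proteins that fuse secretory vesicles with their target membranes, and the exocyst complex that tethers vesicles before fusion. The members were chosen with earlier results of these data known, although the rule itself uses no measured values. They were listed by symbol and found through their Ensembl identifiers in GENCODE vM21. They comprise 27 SNARE proteins, 3 docking or priming factors, 2 factors that take SNARE complexes apart, and the 8 subunits of the exocyst. RNA was measured by single-end sequencing in primary microglia of wild-type (WT) C57BL/6 mice, given as C57BL/6N for the pups in the methods. The cells were shaken off mixed glial cultures of newborn pups, so they are cultured cells from neonatal brain rather than adult microglia in tissue, and all of them were kept in medium with serum and the growth factor CSF-1. In the LPS group, 4 libraries came from cells given 5 µg/ml LPS, the bacterial lipopolysaccharide that activates Toll-like receptor 4, for 24 h. In the vehicle group, 4 libraries came from cells given vehicle for the same time. The labels call the libraries biological replicates without saying which cultures or animals each came from, so p-values measure the spread between these libraries. The study asked how reactive microglia change shape and release cytokines, and the comparison of LPS with vehicle shows how transcripts of the release machinery stood in the same cells.

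Cytokines and other secreted proteins leave the endoplasmic reticulum (ER), pass the Golgi and recycling endosomes, and are released when a vesicle fuses with the plasma membrane. At each step an R-SNARE on the vesicle zips together with Qa-, Qb- and Qc-SNAREs on the target membrane into a bundle of helices that pulls the membranes together. Sec1/Munc18 (SM) proteins and Munc13 proteins guide that assembly, NSF and its adaptor alpha-SNAP (Napa) take spent complexes apart, and the exocyst holds a vesicle at the plasma membrane before SNAREs engage. In macrophages this machinery is known for moving newly made cytokines through recycling endosomes to the cell surface.

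The libraries held 20071921 to 30604447 counts. In the text, CPM means counts per 1000000 counts of a library after TMM scaling, in which edgeR multiplies each library total by a factor that lines up the bulk of genes. Those factors lay between 1.21 and 1.32 in the vehicle libraries and between 0.701 and 0.833 in the LPS libraries. The scaling therefore sets the direction of modest changes, and library totals alone lower the log2 fold change of the median gene by 0.68. LPS replicate 3, the deepest library, was the highest of the 4 LPS libraries for 30 of 40 members (75%), against 41.0% of all 13847 genes tested. Counts of called members are given with and without it, as are the changes of some members that it raised. Of 12 microglial markers, 9 were lower and 2 higher after LPS, with a summed level of 11030 to 14498 CPM in vehicle and 5185 to 5797 CPM in LPS libraries. The summed level of 6 endothelial markers was 31.1 to 73.5 CPM in vehicle and 163 to 254 CPM in LPS libraries, with Cldn5 at 0 in every library and Tek and Esam at up to 3 counts. Marker sums of astrocytes (20.5 to 46.6 against 41.0 to 124 CPM), oligodendrocyte precursors (21.8 to 90.5 against 53.1 to 123 CPM), oligodendrocytes (150 to 205 against 188 to 237 CPM; Mobp at 0), neurons (15.8 to 49.9 against 5.36 to 22.9 CPM) and fibroblasts or pericytes (0.497 to 4.31 against 5.30 to 21.4 CPM; Rgs5 at up to 3 counts) are given for comparison, and the part of the marker sums in the results below was not tested. Of the markers that passed the filter, 3 of 3 endothelial ones were called higher, and the calls were 1 higher and 3 lower of 8 for astrocytes, 1 and 2 of 5 for precursors, 1 and 1 of 4 for oligodendrocytes, 4 lower of 6 for neurons and 1 higher of 2 for fibroblasts or pericytes. The single called rises, as vehicle and LPS mean CPM, were Gja1 for astrocytes (0.873 and 48.6) and Vcan for precursors (16.6 and 61.2). For oligodendrocytes it was Cnp (88.6 and 195) and for fibroblasts or pericytes Dcn (0.136 and 8.90).

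With TMM scaling, 24 of these 40 members were called higher after LPS, although library totals alone left 7 of the 24 rises. This holds for the listed members: of 29 other SNAREs and SNARE regulators tested, 5 were called higher and 14 lower. The largest rises among the members were those of the plasma membrane syntaxins Stx11 and Stx3, the priming factor Unc13d and the SM protein Stxbp3. All 40 members passed the filter on low counts. With edgeR's quasi-likelihood test and Benjamini-Hochberg adjustment over all 13847 genes, at an adjusted p under 0.05, 24 members (60.0%) were higher, 5 (12.5%) were lower and 11 passed in neither direction. Over all genes 64.1% were called, 30.3% higher and 33.8% lower, so the share of members called higher lay above the background and the share called lower below it. The median log2 fold change was 0.55 over the members and -0.11 over all genes. Under library totals alone, 7 of 40 members were called higher, 16 lower and 17 neither. Of all 13847 genes, 1988 were called higher and 8457 lower under that scaling. The median member still stood 0.65 above the median gene there on the log2 scale, against 0.66 with TMM. Without LPS replicate 3, 24 members were higher and 8 lower. With DESeq2, 26 were higher and 3 lower, as Nsf and Exoc3 lost the call. In a bulk sample, fewer cells of a type and less RNA per cell cannot be told apart.

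The same split was seen library by library in CPM. These CPM carry the same TMM factors as the calls, so they are no separate test of the direction. Overlap between the groups under library totals alone was not counted. In 25 members every LPS library exceeded every vehicle library in CPM, and in 3 members every LPS library was below, while the groups overlapped in 12. Over all genes these shares were 28.7% and 31.5%. Changes of at least 1 on the log2 scale were called in 8 members upward and 1 downward, against 16.1% and 21.7% of all genes. Without LPS replicate 3 the rises of Vamp4 (0.96), Stxbp3 (0.91) and Stx2 (0.87) lay under 1. The 7 members called higher under library totals too were Stx11, Stx3, Unc13d, Stxbp3, Vti1a, Vamp4 and Stx18. Another 7 members had a positive value without a call there, so the plot of member changes by role shows 14 open diamonds to the right of 0.

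**Figure D1:**
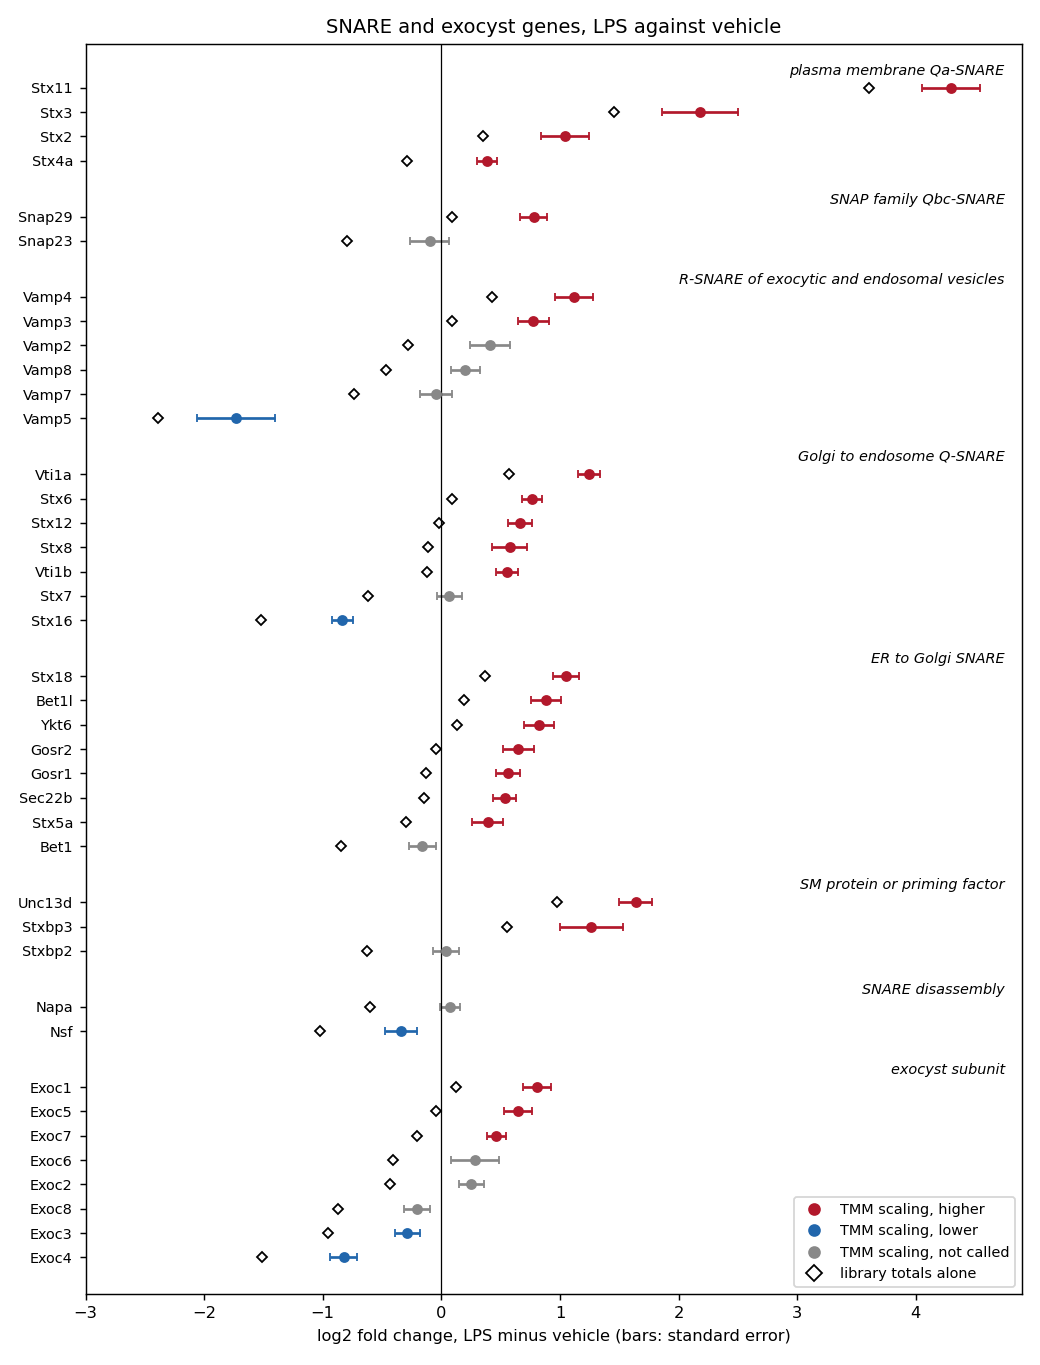
Log2 fold change of LPS against vehicle (x axis) for the 40 members by role (y axis). Filled points are the edgeR estimates with TMM scaling and bars their standard errors, red for called higher, blue for called lower and grey for neither, and open diamonds are the estimates with library totals alone. Stx11 lies farthest to the right at 4.30, and the diamonds of most other members lie near or left of 0.

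The syntaxins of the plasma membrane were the group with the largest change. Stx2, Stx3, Stx4a and Stx11 are Qa-SNAREs that receive vesicles at the cell surface, and all 4 of 4 were called higher with a median log2 fold change of 1.61, although under library totals alone 2 were higher (Stx3 and Stx11), Stx4a was lower and Stx2 was not called. Stx11 is an unusual member without a transmembrane helix, known for granule release in cytotoxic lymphocytes. Its vehicle libraries held 7.39, 5.26, 6.95 and 4.76 CPM and its LPS libraries 89.6, 105, 172 and 113 CPM. The groups lay far apart, with the lowest LPS library above the highest vehicle library by a wide margin. The log2 fold change was 4.30 ± 0.24 (SE), a 19.7-fold rise (edgeR adjusted p = 7.27e-07), and it was 4.08 without LPS replicate 3 and 3.60 under library totals.

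Stx11 lies at chr10:12938209-12964298 on the minus strand of GRCm38 and Stx3 at chr19:11775118-11819403, also on the minus strand. The RefSeq windows before their starts (GRCm38.p6) are shown because these were the syntaxins with the largest rises, 130 bases each, upstream of the annotated exons and read 5′ to 3′. The Stx11 stretch covers chr10:12964300-12964429, bases -170 to -41 from the RefSeq start, and the Stx3 stretch covers chr19:11819404-11819533, bases -130 to -1. Both are wholly in lower case because no searched motif (spelled out with the promoter counts) was found in them.
Stx11: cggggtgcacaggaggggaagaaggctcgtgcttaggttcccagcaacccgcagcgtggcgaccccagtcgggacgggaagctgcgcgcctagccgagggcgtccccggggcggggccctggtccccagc
Stx3: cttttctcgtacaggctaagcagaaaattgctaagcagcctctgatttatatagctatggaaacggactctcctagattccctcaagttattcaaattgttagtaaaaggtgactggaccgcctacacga

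Stx3, the apical and granule syntaxin of many secretory cells, stood at 26.5, 23.0, 23.0 and 27.6 CPM in vehicle and at 68.9, 85.8, 207 and 91.7 CPM in LPS libraries. The groups did not overlap, and LPS replicate 3 stood well above the other LPS libraries. Its log2 fold change was 2.18 ± 0.32 (SE; edgeR adjusted p = 2.37e-04) and 1.72 without LPS replicate 3. Stx2, also called epimorphin, is a plasma membrane syntaxin of wide expression. Its vehicle libraries held 82.1, 62.2, 81.9 and 58.8 CPM and its LPS libraries 102, 150, 196 and 138 CPM. The groups were separate but the LPS libraries were spread widely, and the log2 fold change of 1.04 ± 0.20 (SE; edgeR adjusted p = 0.00135) became 0.87 without LPS replicate 3. Stx4a, which pairs with Snap23 in regulated secretion in many cell types, stood at 67.0, 63.0, 67.6 and 58.7 CPM in vehicle and at 84.5, 82.9, 83.5 and 83.6 CPM in LPS libraries. Its libraries were tight within each group, with a log2 fold change of 0.38 ± 0.08 (SE; edgeR adjusted p = 0.00270) that turned to -0.29 under library totals alone (adjusted p = 0.0131).

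**Figure D2:**
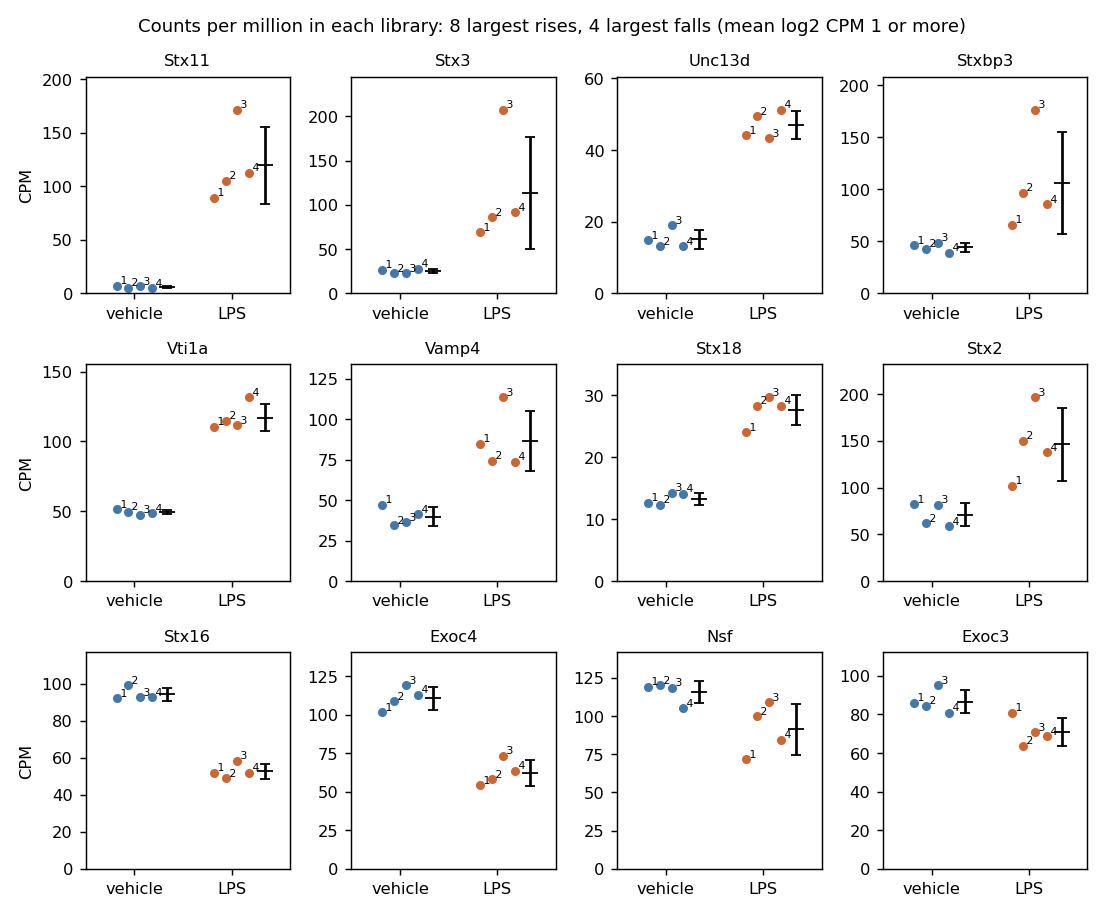
TMM-scaled CPM (y axis, from 0) in each library for the 8 members with the largest called rises and the 4 with the largest called falls at a mean log2 CPM of at least 1. Blue points are the 4 vehicle and orange points the 4 LPS libraries, numbered by replicate, and black bars are the mean and SD. LPS replicate 3 stands above the other LPS libraries for Stx11 (172), Stx3 (207), Stxbp3 (177) and Stx2 (196).

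Among the partners of these syntaxins the values moved less. Snap23 and Snap29 each supply the Qb and Qc helices of a fusion complex, Snap23 at the plasma membrane and Snap29 mainly on endosomal and autophagic membranes. Snap23 was not called, at 102, 115, 136 and 116 CPM in vehicle and 90.8, 102, 149 and 95.2 CPM in LPS libraries (log2 fold change -0.10 ± 0.17 SE; edgeR adjusted p = 0.621). Its groups overlapped, LPS replicate 3 was the highest library of all, and without that library the call was lower at -0.28 (adjusted p = 0.0487). Snap29 was called higher by 0.78 ± 0.12 (SE; edgeR adjusted p = 2.58e-04) and lost the call under library totals alone, where its log2 fold change was 0.09 (adjusted p = 0.316).

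Of the 6 R-SNAREs, 2 (Vamp4 and Vamp3) were called higher, 1 (Vamp5) lower and 3 (Vamp2, Vamp7 and Vamp8) neither, and under library totals alone 1 was higher and 3 were lower. Vamp4 cycles between endosomes and the trans-Golgi network. It held 47.2, 34.7, 36.5 and 41.3 CPM in vehicle and 84.7, 74.2, 113 and 73.8 CPM in LPS libraries, without overlap. The log2 fold change was 1.12 ± 0.16 (SE; edgeR adjusted p = 2.23e-04) and 0.96 without LPS replicate 3. Vamp3, or cellubrevin, is the R-SNARE of recycling endosomes and carries cytokines to the surface of macrophages. Its vehicle libraries held 126, 123, 144 and 122 CPM and its LPS libraries 200, 200, 273 and 209 CPM, again without overlap. The log2 fold change was 0.78 ± 0.13 (SE; edgeR adjusted p = 5.42e-04) with TMM and 0.09 under library totals (adjusted p = 0.386). Of its 50-base transcript windows, 5.14% also occur in other genes.

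Vamp8, the endolysosomal and granule VAMP, held 89.7 to 122 CPM in vehicle and 106 to 123 CPM in LPS libraries. Vamp7, the longin-domain VAMP of late endosomes, which GENCODE vM21 places on the unplaced scaffold GL456233.1, held 38.4 to 41.5 and 33.7 to 49.7 CPM, and Vamp2, the synaptic-type VAMP, held 16.7 to 28.8 and 28.0 to 36.3 CPM. All 3 overlapped between the groups, with log2 fold changes of 0.20, -0.04 and 0.41 (edgeR adjusted p = 0.167, 0.787 and 0.0550). Without LPS replicate 3, Vamp7 was called lower at -0.19 (edgeR adjusted p = 0.0352). Vamp2 was higher in 4 of 4 same-numbered pairs, and it was called higher with DESeq2 (adjusted p = 0.0236), with DESeq2 size factors in edgeR (0.0262) and without vehicle replicate 1 (0.0158) or 3 (0.0492). Vamp5, known from muscle, was the member with the lowest counts, down to 11 in a library, and its level lay under the limit for named genes. It is given here as the member whose fall was largest, a choice made after its values were seen. It held 2.45, 2.32, 3.93 and 2.24 CPM in vehicle and 0.658, 1.03, 0.513 and 1.08 CPM in LPS libraries (log2 fold change -1.73 ± 0.33 SE; edgeR adjusted p = 0.00124).

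The docking and priming factors split, with Unc13d and Stxbp3 called higher and Stxbp2 in neither direction, while under library totals alone Stxbp2 was called lower. Unc13d (Munc13-4) primes granules for fusion and works in cytotoxic granule release together with Stx11 and the SM protein Stxbp2 (Munc18-2), and inherited loss of any of these genes is known to cause haemophagocytic lymphohistiocytosis. Unc13d held 14.9, 13.2, 19.0 and 13.1 CPM in vehicle and 44.1, 49.4, 43.3 and 51.3 CPM in LPS libraries. The groups lay well apart, LPS replicate 3 was the lowest of the LPS libraries here, and the log2 fold change was 1.64 ± 0.14 (SE), a 3.12-fold rise (edgeR adjusted p = 7.61e-06). Stxbp2 was not called, at 104 to 123 CPM in vehicle and 106 to 133 CPM in LPS libraries, overlapping widely, with a log2 fold change of 0.04 ± 0.11 (SE; edgeR adjusted p = 0.787).

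Stxbp3 (Munc18c), the SM protein that binds Stx4 and other plasma membrane syntaxins, lies at chr3:108793176-108840526 on the minus strand. It stood at 46.1, 43.1, 48.7 and 39.0 CPM in vehicle and at 66.0, 96.7, 177 and 85.5 CPM in LPS libraries. All LPS libraries were higher, but LPS replicate 3 was far above the rest: the log2 fold change of 1.26 ± 0.27 (SE; edgeR adjusted p = 0.00227) became 0.91 without it. A share of 9.27% of its 50-base transcript windows also occurs in Stxbp3-ps, a pseudogene copy, so reads from those windows could not be assigned uniquely. Its RefSeq window is shown, at chr3:108840527-108840652 (bases -150 to -25 from the start), because it was the only called SM gene, with the match to the CRE motif TGACGTCA in capitals, starting at base -108.
Stxbp3: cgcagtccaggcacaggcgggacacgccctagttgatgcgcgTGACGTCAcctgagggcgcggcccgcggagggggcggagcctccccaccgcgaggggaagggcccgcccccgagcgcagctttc

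The SNAREs that work between the Golgi and endosomes were called higher in 5 of 7 (Vti1a, Stx6, Stx12, Stx8 and Vti1b), lower in 1 (Stx16) and in neither direction in 1 (Stx7), whereas under library totals alone 1 was higher, 2 were lower and 4 were not called. Vti1a, a Qb-SNARE of the trans-Golgi network, held 51.3, 49.8, 47.7 and 48.7 CPM in vehicle and 110, 115, 112 and 132 CPM in LPS libraries. Both groups were tight and far apart, and the log2 fold change was 1.24 ± 0.09 (SE; edgeR adjusted p = 3.23e-06). Stx16, a Qa-SNARE of endosome to trans-Golgi transport, moved the other way. It stood at 92.3, 99.3, 92.9 and 92.7 CPM in vehicle and at 51.9, 49.0, 58.6 and 51.9 CPM in LPS libraries. Every LPS library was lower, and the log2 fold change was -0.83 ± 0.09 (SE; edgeR adjusted p = 3.23e-05).

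The remaining members of that group changed by less. Stx6, the Qc partner of Stx16, rose by 0.77 on the log2 scale from 45.7 to 49.0 CPM in vehicle to 76.2 to 85.5 CPM in LPS libraries (edgeR adjusted p = 3.31e-05), and was not called under library totals (0.09, adjusted p = 0.432). Stx12, a recycling endosome syntaxin, Stx8 and Vti1b, of late endosomes, had log2 fold changes of 0.66, 0.58 and 0.56, and these turned to -0.02, -0.11 and -0.12 under library totals alone. Vti1b shares 17.7% of its exonic bases with Arg2 on the opposite strand. Arg2 was itself higher, at 7.29 ± 8.59 CPM in vehicle and 36.2 ± 16.2 CPM after LPS (SD, n = 4 each), and its part in the Vti1b value was not tested. Stx7, the late endosomal Qa-SNARE, was not called (252 to 267 CPM in vehicle, 256 to 314 CPM in LPS libraries), and its highest LPS value was LPS replicate 3.

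Between the ER and the Golgi, 7 of 8 SNAREs were called higher and Bet1 was not called, whereas under library totals alone 1 was higher (Stx18), 2 were lower (Stx5a and Bet1) and 5 were not called. In all 8 genes LPS replicate 3 was the highest LPS library, and without it 7 were still called higher and 1 (Bet1) was called lower. Stx18, a Qa-SNARE of retrograde traffic to the ER, held 12.7, 12.3, 14.2 and 14.1 CPM in vehicle and 24.1, 28.3, 29.7 and 28.3 CPM in LPS libraries. The groups did not overlap, and the log2 fold change was 1.05 ± 0.11 (SE; edgeR adjusted p = 2.97e-05). Of its exonic bases, 32.3% overlap Nsg1 and Gm42858 on the opposite strand. Nsg1 was low and fell (4.15 ± 1.80 to 1.81 ± 0.62 CPM, SD, n = 4 each; edgeR log2 fold change -1.20, adjusted p = 0.0291). Gm42858 held 0.433 ± 0.164 and 1.04 ± 0.14 CPM (edgeR log2 fold change 1.25, adjusted p = 0.0107). The part of both in the Stx18 value was not tested.

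The other rises in this group ranged from 0.39 (Stx5a, the Golgi Qa-SNARE) to 0.88 (Bet1l, a Qc-SNARE within the Golgi) on the log2 scale. The call of Stx5a (edgeR adjusted p = 0.0285) was lost with upper quartile factors (0.0983), with no filter on low counts (0.0625) and without LPS replicate 2 (0.0518). Ykt6, a lipid-anchored R-SNARE, went from 150 to 155 CPM in vehicle to 220 to 326 CPM in LPS libraries, with a log2 fold change of 0.82 (edgeR adjusted p = 3.15e-04). Sec22b, the R-SNARE of ER-derived vesicles, and the Golgi Qb-SNAREs Gosr1 and Gosr2 rose by 0.54, 0.56 and 0.65, but stood at -0.15, -0.13 and -0.04 under library totals alone. Bet1, the Qc-SNARE that works with Stx5, was at 21.0 to 23.7 CPM in vehicle and 17.5 to 23.1 CPM in LPS libraries. Its call as lower without LPS replicate 3 was at -0.24 (edgeR adjusted p = 0.0360). Bet1l overlaps Ric8a on the opposite strand over 9.87% of its exonic bases and Gm45785, which had no counts, on its own strand over 9.11%. Ric8a was higher after LPS by 0.92 on the log2 scale, and its part in the Bet1l value was not tested.

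Of the disassembly factors, Nsf was called lower and Napa was not called, and both were called lower under library totals alone. Nsf, the ATPase that recycles SNAREs, held 119, 120, 118 and 105 CPM in vehicle and 71.7, 99.98, 109 and 84.6 CPM in LPS libraries. The groups overlapped, and the log2 fold change of -0.34 ± 0.14 (SE; edgeR adjusted p = 0.0490) lay at the threshold and lost the call without LPS replicate 1 (adjusted p = 0.105), 2 (0.0650) or 4 (0.132) and without vehicle replicate 1 (0.0970), 2 (0.101) or 3 (0.113). Napa held 104 to 109 CPM in vehicle and 103 to 119 CPM in LPS libraries (log2 fold change 0.07 ± 0.09 SE; edgeR adjusted p = 0.467).

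The exocyst subunits did not move together. Exoc1, Exoc5 and Exoc7 were called higher, Exoc4 and Exoc3 lower, and Exoc2, Exoc6 and Exoc8 neither, whereas under library totals alone 4 were lower and the other 4 were not called. The complex is built from the subunits Exoc1 to Exoc4 and Exoc5 to Exoc8, known as subcomplexes that join at the vesicle. With TMM each subcomplex held both positive and negative log2 fold changes, but in Exoc5 to Exoc8 the only negative one was the uncalled Exoc8 (-0.20). Under library totals alone all of Exoc5 to Exoc8 were negative. Exoc4 (Sec8) stood at 102, 109, 119 and 113 CPM in vehicle and at 54.2, 58.2, 73.5 and 63.6 CPM in LPS libraries. Every LPS library was lower, with a log2 fold change of -0.83 ± 0.11 (SE; edgeR adjusted p = 1.61e-04), and Exoc4 was the member of the complex with the largest fall under TMM and under library totals (-1.51). Exoc3 (Sec6) held 86.0, 84.5, 95.2 and 80.8 CPM in vehicle and 80.9, 63.9, 70.8 and 68.6 CPM in LPS libraries, which met at their edges. Its log2 fold change was -0.29 ± 0.10 (SE; edgeR adjusted p = 0.0325), and the call was lost without LPS replicate 2 (adjusted p = 0.111) or 4 (0.0900) and without vehicle replicate 1 (0.115), 2 (0.102), 3 (0.208) or 4 (0.0764).

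Exoc4 lies at chr6:33249085-33973979 on the plus strand. Its RefSeq stretch at chr6:33248948-33249077 (bases -180 to -51) is shown because it fell most in the complex, with a match to the GAS motif TTCNNNGAA in capitals, starting at base -171.
Exoc4: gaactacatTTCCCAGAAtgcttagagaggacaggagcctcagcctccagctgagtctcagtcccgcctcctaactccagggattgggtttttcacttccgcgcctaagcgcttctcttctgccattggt

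The rises in the exocyst were smaller than those of the syntaxins Stx11 and Stx3. Exoc1 (Sec3), which binds membrane phosphoinositides, held 48.8, 53.2, 50.5 and 46.1 CPM in vehicle and 74.6, 84.7, 105 and 83.5 CPM in LPS libraries, with a log2 fold change of 0.81 (edgeR adjusted p = 2.28e-04). Exoc5 (Sec10) held 75.5, 76.4, 69.8 and 75.8 CPM in vehicle and 105, 106, 143 and 113 CPM in LPS libraries, with a log2 fold change of 0.65 (edgeR adjusted p = 8.79e-04). Exoc7 (Exo70), the other subunit that binds the plasma membrane, held 40.3, 40.5, 44.9 and 39.2 CPM in vehicle and 56.7, 57.9, 56.2 and 56.8 CPM in LPS libraries, with a log2 fold change of 0.46 (edgeR adjusted p = 7.71e-04). In each of these the groups did not overlap, and under library totals alone the values were 0.12, -0.04 and -0.21. Exoc2 (Sec5), a Ral GTPase effector, did not overlap between groups either (63.7 to 69.5 CPM against 72.6 to 94.1 CPM) but missed the threshold at 0.25 (edgeR adjusted p = 0.0585), and it was called higher with DESeq2 (adjusted p = 0.0327), with DESeq2 size factors in edgeR (0.0280) and without LPS replicate 1 (0.0469) or vehicle replicate 3 (0.0222). Exoc6 (27.9 to 41.5 CPM against 30.2 to 54.5 CPM) and Exoc8 (30.7 to 31.8 CPM against 23.6 to 32.1 CPM) overlapped, with edgeR adjusted p = 0.244 and 0.136.

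**Figure D3:**
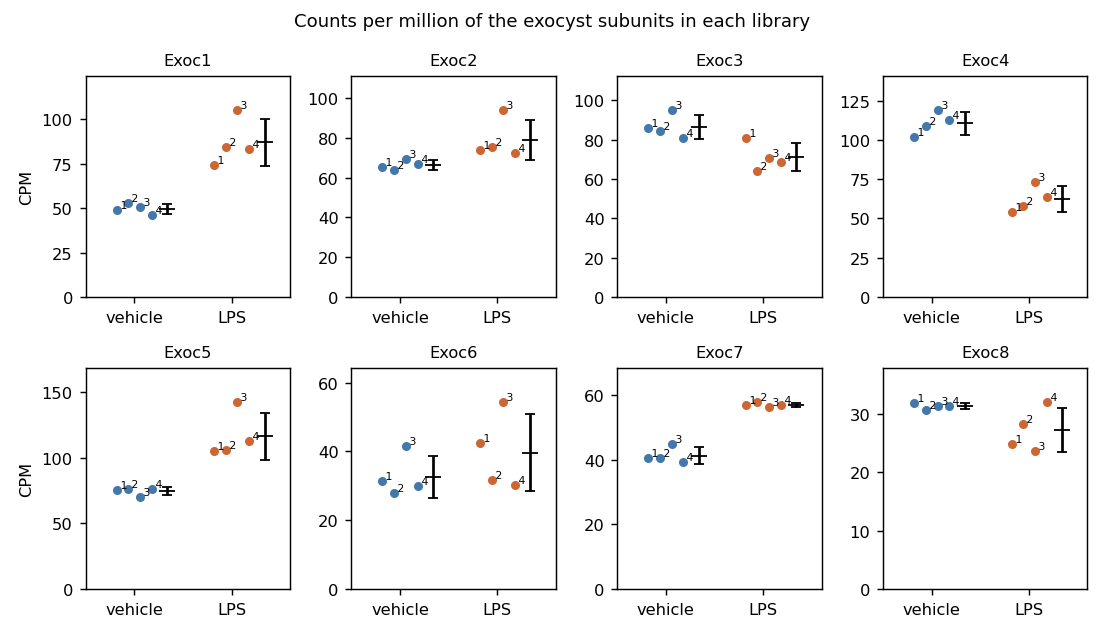
TMM-scaled CPM (y axis, from 0) of the 8 exocyst subunits in each library. Blue points are vehicle and orange points LPS libraries, numbered by replicate, with the mean and SD in black. Exoc1, Exoc5 and Exoc7 lie higher in all 4 LPS libraries and Exoc4 lower in all 4, while Exoc3, Exoc6 and Exoc8 overlap.

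Related members were then compared as ratios within a library, which no scaling between libraries can change. In 8 of 11 pairs the log2 ratio did not overlap between the groups, and each of these had the smallest p that an exact permutation test of 4 against 4 libraries allows (0.0286, two-sided; 0.0393 adjusted over the 11 pairs). How often the ratios of other gene pairs separate was not tested, so the 8 of 11 has no background. Among all single genes tested, 28.7% were higher and 31.5% lower after LPS without overlap in CPM. The count therefore cannot show whether these pairs differ from other genes. The pairs of Stx11 and Stx3 also share Stx4a, and the members were chosen with earlier results known. The ratio of Stx11 to Stx4a rose from -3.41 ± 0.22 to 0.48 ± 0.40 (SD, n = 4 each). That of Stx3 to Stx4a rose from -1.36 ± 0.20 to 0.30 ± 0.70. The ratio of Stx6 to Stx16, which act in the same endosome to Golgi complex, went from -0.99 ± 0.09 to 0.61 ± 0.18. Each of these 3 ratios therefore moved from the side of the second gene toward the first, and in all but LPS replicate 1 of Stx3 to Stx4a (-0.29) the counts of the first exceeded those of the second after LPS.

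The ratio of Stxbp2 to Stxbp3 fell by 1.13 on the log2 scale, from 1.37 ± 0.06 to 0.23 ± 0.73 (SD, n = 4 each), with the LPS libraries between -0.74 and 1.01. Snap23 to Snap29 fell by 0.89, Bet1 to Bet1l fell by 1.03 and Stx7 to Stx12 fell by 0.60, while Vti1a to Vti1b rose by 0.69. Stx7 to Stx12 had the tightest libraries of these, at 0.96 to 1.02 in vehicle and 0.35 to 0.43 after LPS. Overlap remained for Vamp3 to Vamp2 (difference 0.34, exact permutation p = 0.200, adjusted 0.220), Vamp8 to Vamp7 (0.27, p = 0.171, adjusted 0.210) and Gosr1 to Gosr2 (-0.08, p = 0.371, adjusted 0.371).

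**Figure D4:**
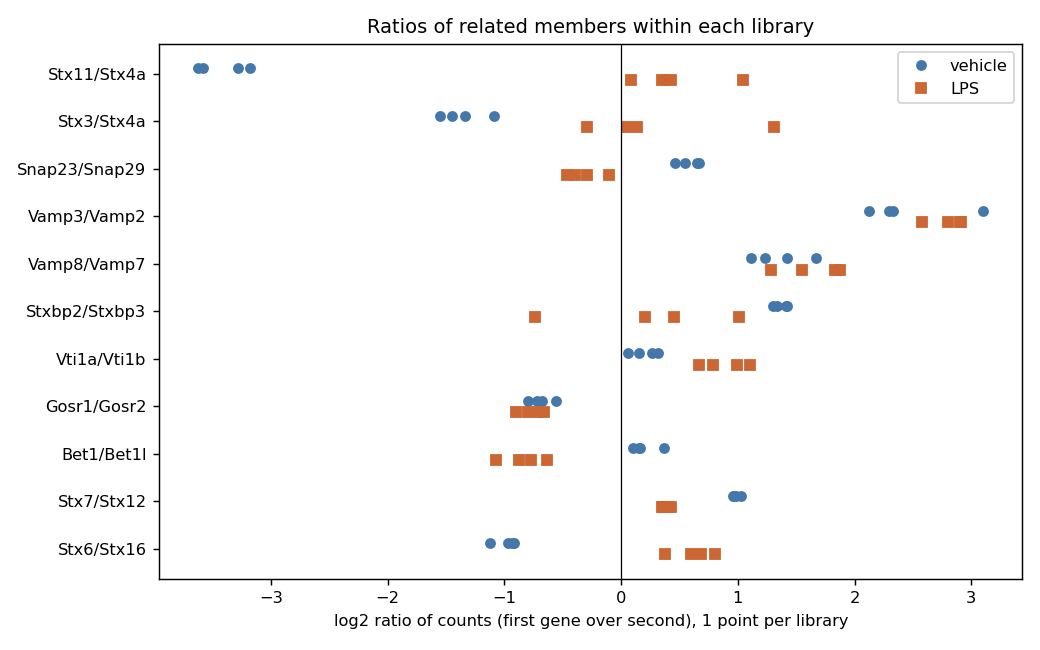
Log2 ratio of the counts of related members within each library (x axis) for 11 pairs (y axis), with vehicle libraries as blue circles and LPS libraries as orange squares. The colours separate in 8 pairs, most widely for Stx11/Stx4a, and overlap for Vamp3/Vamp2, Vamp8/Vamp7 and Gosr1/Gosr2.

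Levels of different genes were compared per length as TPM (transcripts per 1000000), the counts per exonic base scaled to that sum in each library without TMM factors. Among the plasma membrane syntaxins, Stx4a made up 56.1% ± 2.1 of the summed TPM in vehicle and 31.8% ± 6.8 after LPS (SD, n = 4 each). Stx11 went from 2.96% ± 0.35 to 24.4% ± 1.4, Stx3 from 9.12% ± 1.41 to 16.3% ± 4.8, and Stx2 from 31.9% ± 2.6 to 27.5% ± 2.4. Stx4a thus went from the majority of the summed TPM to a share that did not differ from that of Stx2 beyond their spread. With the longest transcript as the length, Stx3 stood above Stx11 after LPS (74.0 against 58.3 TPM), whereas with all exonic bases Stx11 stood above Stx3 (71.6 ± 15.5 against 49.2 ± 22.8 TPM).

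Among the R-SNAREs, Vamp3 (37.1% ± 1.3 in vehicle, 44.8% ± 1.6 after LPS) and Vamp8 (36.5% ± 2.7 and 30.2% ± 3.3) held most of the summed TPM in both groups. Their vehicle shares did not differ beyond their spread with all exonic bases as length, whereas with the longest transcript Vamp3 stood at 211 TPM and Vamp8 at 170.0 TPM. Of the docking and priming factors, Stxbp2 went from 70.5% ± 1.1 to 49.1% ± 9.0, Stxbp3 from 21.3% ± 0.6 to 33.4% ± 11.01 and Unc13d from 8.24% ± 0.87 to 17.5% ± 2.8. In the exocyst the share of Exoc4 went from 13.2% ± 0.6 to 6.85% ± 0.56 and that of Exoc1 from 6.22% ± 0.47 to 10.0% ± 0.9. The order of the subunits depended on the length taken, since Exoc4 in vehicle held 38.0 ± 3.4 TPM with all exonic bases and 79.8 TPM with the longest transcript.

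**Figure D5:**
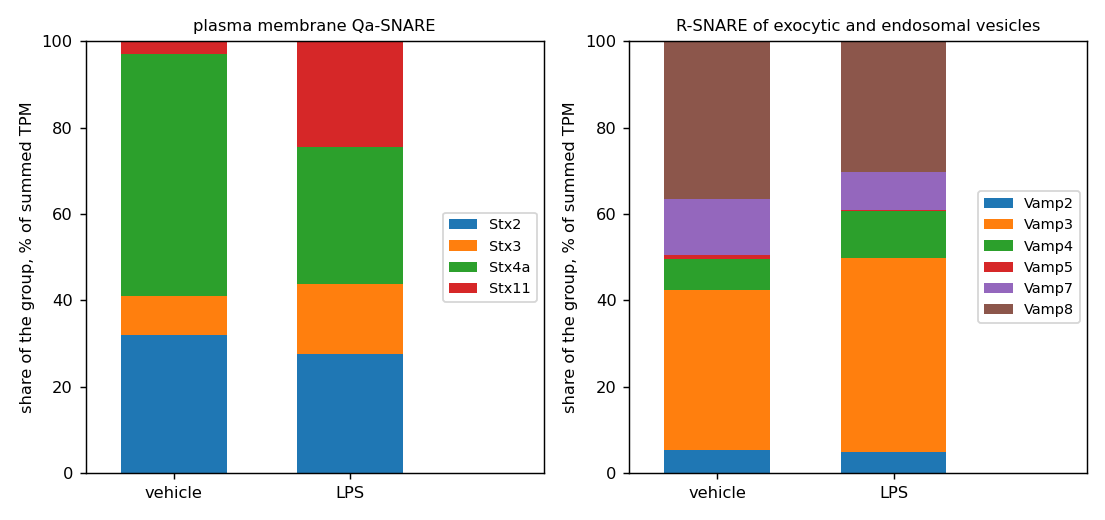
Mean share of each gene in the summed TPM of its group (y axis, percent) over the 4 vehicle and the 4 LPS libraries, for plasma membrane syntaxins (left) and R-SNAREs (right). Stx11 goes from 2.96% to 24.4% of the syntaxins, and Vamp3 and Vamp8 make up most of the R-SNAREs in both groups.

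RefSeq promoter windows, 250 bases before to 50 after a start on GRCm38.p6, were matched for 36 of 40 members. Vamp2, Vamp3, Vamp7 and Unc13d had no entry. The motifs were searched on both strands and can overlap each other. GAAA, any 2 bases and GAAA again, the core of the interferon-stimulated response element, occurred in 2 members (Exoc2 and Gosr2; 5.56%, against 3.99% of all genes). GGG, any 2 bases and TTTCC, an NF-kB site, occurred in Exoc7 (2.78% against 1.90%), and TGANTCA, the AP-1 site, in Exoc5 and Gosr2 (5.56% against 8.97%). The CRE TGACGTCA occurred in Gosr2, Napa and Stxbp3 (8.33% against 2.03%), and the GAS TTCNNNGAA in Bet1, Exoc1, Exoc4 and Vamp8 (11.1% against 9.55%). The genes with a CRE thus included members called higher (Gosr2, Stxbp3) and an uncalled member (Napa), and the windows of Stx11 and Stx3 held none of these motifs.

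Other genes of the pathway were read from lists chosen by role. Of 41 other SNAREs and SNARE regulators, 29 passed the filter, 5 were called higher and 14 lower, with a median log2 fold change of -0.38, and under library totals alone 2 were higher and 23 lower, with a median of -1.06. Syt7, a calcium sensor of lysosome and granule exocytosis, rose from 0.415 ± 0.311 to 23.6 ± 4.1 CPM (SD, n = 4 each; edgeR log2 fold change 5.82, adjusted p = 1.71e-06). Cadps, a priming factor of dense-core vesicles, was low and fell by 1.95 on the log2 scale (edgeR adjusted p = 0.00920). The neuronal marker sum was also lower after LPS, as given with the libraries, and its part in this fall was not tested.

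Of 14 exocyst paralogs and activators, 11 were tested, of which 9 were called higher and the other 2 in neither direction, with a median of 0.73 (edgeR), whereas under library totals alone 4 were higher, 1 was lower and 6 were not called, with a median of 0.06. Rala, the Ral GTPase that recruits the exocyst, rose by 1.25, Rab11a, the recycling endosome GTPase, by 1.01, and Exoc6b, the paralog of Exoc6, by 0.99, with edgeR adjusted p = 6.23e-06, 4.07e-05 and 1.65e-04, and under library totals alone these were 0.57, 0.33 and 0.29. Of 40 genes of other tethering complexes, 18 were called higher, 7 lower and 15 neither, with a median of 0.19, whereas under library totals alone 3 were higher, 28 lower and 9 neither, with a median of -0.50. Trappc4 and Trappc5, subunits of the TRAPP complexes, rose by 1.41 and 1.13, and Uso1, the golgin p115, by 1.20 (edgeR adjusted p = 1.15e-05, 1.17e-05 and 1.73e-05).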

How the data were processed

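RNA of 4 LPS and 4 vehicle libraries was sequenced. The authors filtered the reads with HTSeqGenie, aligned them with GSNAP to GRCm38 and deposited raw counts of uniquely aligned reads per Ensembl gene. The annotation release and the use of strand in counting are not given in the sources used here, and the labels and the methods name different library kits and sequencers. Symbols were matched to GENCODE vM21 for 52489 of 52636 identifiers, and the other 147 held 0.00512% of counts.

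Counts were tested with edgeR 4.0.16 (TMM, filterByExpr with a minimum count of 10 and total of 15, quasi-likelihood, two-sided, Benjamini-Hochberg adjustment over 13847 genes, threshold 0.05) in R 4.3.3 on all 8 libraries. Alternatives were DESeq2 1.42.0, its size factors, upper quartile factors, no filter, 10 counts in every library, stricter thresholds, a replicate block and leaving out each library. Library totals alone were added after seeing the data. TPM used all exonic bases or, as an alternative, the longest transcript. Ratios used counts plus 0.5 (alternatively 5) and exact permutation of 70 divisions. Tables were made with Python 3.11.15, pandas 2.3.3 and scipy 1.17.1. On simulated data, edgeR recovered 50.0% of 2-fold and 81.0% of 4-fold changes among 13606 genes, with 2.96% of 135 calls false. DESeq2 recovered 70.0% and 90.0% among 13847 genes, with 16.2% of 191 calls false. The percentages recovered are of all 200 changed genes, of which 192 passed the edgeR filter. These changes went equally up and down from a common profile, so the simulation lacked the shift in scaling between the real groups. Recovery and false calls under such a shift were not tested.

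The members and lists were chosen with earlier results of these data known. Values of every library are given for the 8 largest rises and up to 8 largest falls at a mean log2 CPM of at least 1 and for called exocyst subunits, and 3 called genes are named per list, of which 1 is not reported here. Deviations from group means over 8382 genes (mean log2 CPM of at least 3) correlated between same-numbered libraries with r of 0.361, 0.183, 0.183 and 0.130. All exceeded 0.1, the limit set for pairing, but vehicle 2 with LPS 4 (0.154) and vehicle 4 with LPS 2 (0.141) did so too. Pairing by number is therefore not certain. The main fit and the permutation test of the ratios did not use it, and it entered through the replicate block and the same-numbered comparisons. No pair of libraries agreed within sampling noise (lowest chi-square per degree of freedom 6.98). P-values cover the spread between libraries.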

Additional observations from a re-analysis of the deposited data

Results flagged for a closer look

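In 9 of 80 member and group combinations the highest or lowest of 4 libraries stood apart from the other 3 by a larger part of the group's range than the critical value of Dixon's test, where chance gives about 1 in 20. LPS replicate 3 was the high library in 5 of the 9. It held 207 CPM for Stx3 (next 91.7), 273 CPM for Vamp3 (next 209), 49.7 CPM for Vamp7 (next 36.1), 314 CPM for Stx7 (next 260.0) and 94.1 CPM for Exoc2 (next 75.5). Without LPS replicate 3 the log2 fold change of Vamp3 was 0.66 and that of Exoc2 was 0.16. Vehicle replicate 3 stood apart for Vamp5 (3.93 CPM, next 2.45) and for Exoc5 (69.8 CPM, next 75.5). Vehicle replicate 2 stood above the others for Stx16 (99.3 CPM, next 92.9), and vehicle replicate 4 below them for Nsf (105 CPM, next 118).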

How the results depend on the processing

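With the replicate block, the calls of all 40 members were as without it (24 higher, 5 lower; all genes 4110 higher and 4934 lower), and 8 pairs kept the same direction in all 4 same-numbered library pairs. Members called lower numbered 3 with DESeq2, with its size factors, with no filter and at an adjusted p of 0.01, with 1 exocyst subunit lower in each. Nsf and Exoc3 lost the call in each of these, and Vamp5, Stx16 and Exoc4 kept it. With DESeq2 and with its size factors, 26 members and 4 exocyst subunits were higher, Vamp2 and Exoc2 having been added. Requiring a log2 change of 1 left 5222 genes (2224 higher, 2998 lower), 8 members higher, 1 lower and 0 exocyst subunits in either direction. Upper quartile factors gave 3589 genes higher and 5481 lower. Library totals alone gave 1988 genes higher and 8457 lower, 7 members higher and 16 lower, and 0 exocyst subunits higher (0 at an unadjusted p under 0.05 in edgeR; DESeq2 was not run with this scaling) and 4 lower. Log2 fold changes that reversed there were Stx12 -0.018, Exoc5 -0.042, Gosr2 -0.042, Stx8 -0.11, Vti1b -0.12, Gosr1 -0.13, Sec22b -0.15, Exoc7 -0.21, Stx4a -0.29, Stx5a -0.30, Exoc2 -0.43, Vamp2 -0.28, Exoc6 -0.41, Vamp8 -0.47, Napa -0.61, Stx7 -0.62 and Stxbp2 -0.63. Leaving out each library gave 8031 to 9314 genes called, 3952 to 4393 higher and 4003 to 5015 lower. It gave 23 to 27 members higher and 3 to 8 lower, 3 to 4 exocyst subunits higher and 1 to 2 lower, and 8 to 9 separate pairs. The calls and directions of 28 members held in all 8 of these fits. Some members uncalled in the main fit changed sign in these fits. Snap23 ranged from -0.28 to 0.035 and Vamp7 from -0.19 to 0.024, and both lows were calls, without LPS replicate 3. Stx7 ranged from -0.0045 to 0.14 and Stxbp2 from -0.025 to 0.14. Signs also changed for Vamp7 with DESeq2 (0.010) and its size factors (0.012) and for Stxbp2 with 10 counts in every library (-0.017). With upper quartile factors they changed for Stx7 (-0.093), Stxbp2 (-0.11) and Napa (-0.083). Without LPS replicate 3 the 8 lower members included Snap23, Vamp7 and Bet1, and without LPS replicate 2 or vehicle replicate 1, 2 or 3 there were 3. Of 80 mean TPM values, 67 moved by over 1 SD with the longest transcript as length. Vamp5, at down to 11 counts, was the member most limited by depth.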
